A study of Mus musculus with 15 samples.

Results

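The enzymes that make serine, glycine, proline and asparagine were followed at the RNA level in mouse lungs scarred by bleomycin, a DNA-damaging drug that is given into the airways to model pulmonary fibrosis. The group comprised 9 genes taken by name, a choice made with earlier results of these data known: Phgdh, Psat1 and Psph, which make serine, Shmt1, Shmt2 and Mthfd2, which turn serine into glycine and one-carbon units, Aldh18a1 and Pycr1, which make proline, and Asns, which makes asparagine. They were 9 of the 33340 genes counted, and all 9 were among the 17457 genes with enough counts to be tested. Whole lungs of adult male C57BL/6 mice were collected at day 0 (4 libraries, untreated) and at day 7 (4 libraries), day 14 (4 libraries) and day 21 (3 libraries) after 1 intratracheal dose of bleomycin at 5 U/kg. The design text gives 3 replicates a time point, and the groups here follow the sample titles. Polyadenylated RNA was sequenced, and the titles number the replicates without saying whether each came from another mouse, so p-values measure the spread between these samples. Day 0 replicate 4 had a control title and a treatment label naming bleomycin. Its title placed it in day 0, and without it 4 members still passed at every day. There was no vehicle group, so the time after bleomycin and the instillation itself cannot be told apart.

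Serine is built from an intermediate of glycolysis in 3 steps, and serine hydroxymethyltransferase then splits it into glycine and a one-carbon unit carried by folate. Proline is built from glutamate, through an intermediate that Aldh18a1 makes and Pycr1 reduces. Glycine and proline are the most abundant residues of collagen, the protein that fibroblasts deposit in a scar, and many of these enzymes are known targets of ATF4, a transcription factor that is translated when amino acids run short.

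Libraries held 15652008 to 18020661 counts, and the members had between 26 and 932 counts in a library, with Pycr1 the lowest and Psat1 the highest. Levels are given as CPM, a gene's counts set against the scaled total of its library, and as mean ± SD. The 16 mitochondrial genes took a share of the counts that ran from 2.03% to 4.22% and differed within days 0, 14 and 21. At day 0 it was 2.28% and 2.31% in replicates 1 and 2, and 4.22% and 4.04% in replicates 3 and 4. At day 21 it was 4.01%, 3.18% and 2.66% in replicates 1 to 3. All 5 markers of proliferating cells rose at every later day, from a summed 25.8 to 46.2 CPM at day 0 to 143 to 205 CPM at day 7, and of 5 macrophage markers 3, 5 and 4 rose at days 7, 14 and 21. Of 3 club cell markers 2, 3 and 2 fell. All 5 markers of alveolar type 2 cells, which identify lung tissue, were present in every library, and their sum fell from a median of 30149 CPM at day 0 to 7147 CPM at day 21. In RNA from a whole organ, more cells of a type and more RNA per cell cannot be told apart.

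The data showed 4 enzymes that rose by day 7 and stayed high. Psat1, Mthfd2, Aldh18a1 and Pycr1 were each between 2.56 and 3.87 times their day 0 level at days 7, 14 and 21. The other 5 did not pass the test used here, a Benjamini-Hochberg adjusted p under 0.05 in edgeR's quasi-likelihood test over all genes together with a fold change over 1.5. By that test 4 of 9 members were higher at each of the 3 days and none was lower, while of all genes tested 8.78% were higher at day 7, 12% at day 14 and 12.4% at day 21. The median log2 fold change of the 9 members was 0.58, 0.41 and 0.39 at days 7, 14 and 21, against 0.01, 0.02 and 0.02 over all genes tested. The 4 genes came from the serine, the one-carbon and the proline steps, and Asns, the only asparagine enzyme, did not pass at any day.

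**Figure D1:**
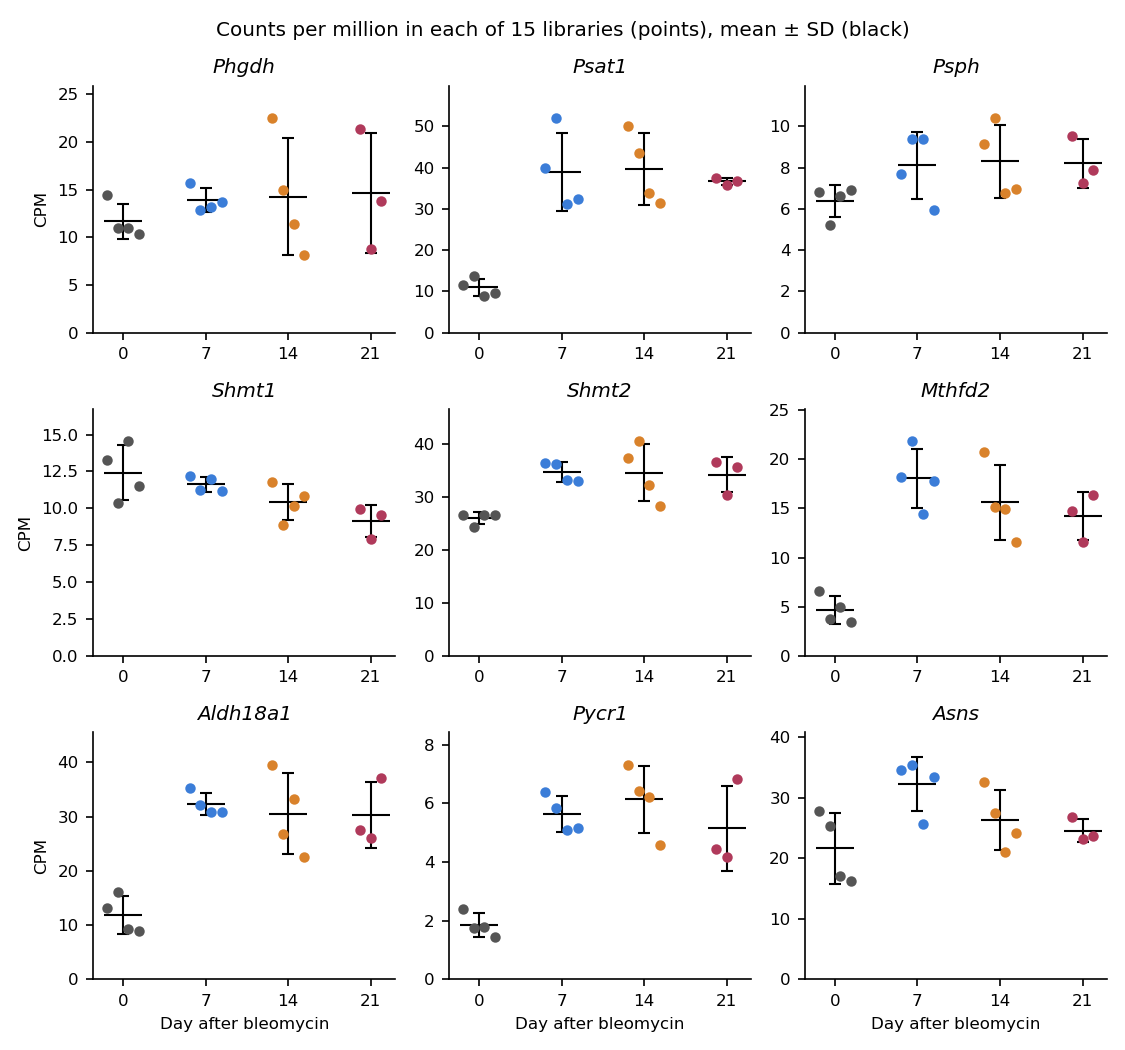
CPM (vertical axis, from 0) of each of the 9 genes in the 15 libraries by day after bleomycin (horizontal axis); points are libraries, bars the mean ± SD. For Psat1, Mthfd2, Aldh18a1 and Pycr1 every later library lies above every day 0 library. Phgdh at days 14 and 21 spreads from below the lowest to above the highest library of day 0.

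The first enzyme of serine synthesis, Phgdh (ENSMUSG00000053398, chr3:98313170-98339990, minus strand; all coordinates are on mm10, which is GRCm38), encodes phosphoglycerate dehydrogenase. Its level was 14.4, 11.0, 11.0 and 10.3 CPM in the 4 libraries of day 0 and 15.7, 12.9, 13.2 and 13.7 CPM at day 7. It then ranged from 8.15 to 22.5 CPM at day 14, with 22.5, 14.9, 11.4 and 8.15 CPM in replicates 1 to 4, and was 21.3, 8.77 and 13.8 CPM at day 21. The later libraries overlapped those of day 0 at every time, and the spread between libraries, 15.9% of the mean at day 0, was 43.2% at both days 14 and 21. Over the 3 later days in turn its log2 fold change was 0.25 ± 0.28 (SE), 0.29 ± 0.28 and 0.32 ± 0.30, and the edgeR adjusted p was 0.546, 0.462 and 0.449. The 95% interval at day 14 ran from -0.31 to 0.88, and so included a change of 1.5-fold. The positive sign rested on 1 library at each of the last 2 days, since the value was -0.044 without day 14 replicate 1 and -0.080 without day 21 replicate 1.

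Those high Phgdh libraries also held the most RNA of activated fibroblast markers (Cthrc1, Postn, Acta2 and Tnc summed), a comparison made after the values were seen. At day 14 the sum was 2014, 1013, 814 and 641 CPM in replicates 1 to 4, the same order as Phgdh. At day 21 it was 1614, 624 and 1224 CPM, again in the order of Phgdh, and the order was also shared at day 0 and not at day 7. Macrophage markers were highest in the same 2 libraries, with sums of 1608 CPM in day 14 replicate 1 and 1334 CPM in day 21 replicate 1, and heart muscle markers summed to 36.1 CPM in the first and 665 CPM in the second. Summed markers of alveolar type 2 cells were the lowest of their day in both libraries, at 6950 and 4415 CPM, as were those of alveolar type 1 and endothelial cells. The part of these marker lists in the spread of Phgdh was not tested. Phgdh also has 19 annotated copies with at least 90% identity over at least 200 bases, 17 of them processed pseudogenes, and reads with several alignments had been left out, so its counts are uncertain as a level. The 8 copies that were counted had at most 5 counts in any library, and Psat1 and Shmt2 have 1 such copy each, with at most 2 and 3 counts.

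Psat1 (ENSMUSG00000024640, chr19:15904678-15947337, minus strand), phosphoserine aminotransferase, catalyses the next step and showed one of the largest rises of the group. It was at 11.5, 13.7, 8.95 and 9.71 CPM at day 0, at 39.9, 52.0, 31.3 and 32.5 CPM at day 7, at 50.2, 43.6, 33.9 and 31.3 CPM at day 14, and at 37.5, 35.7 and 36.9 CPM at day 21. The lowest later library was thus above the highest of day 0. In the same order of days the log2 fold change was 1.83 ± 0.19 (SE), 1.86 ± 0.19 and 1.74 ± 0.20, and the edgeR adjusted p was 3.11e-05, 6.41e-06 and 2.17e-05. Psph (ENSMUSG00000029446, chr5:129765558-129787449, minus strand), the phosphatase that releases serine, was at 5.20 to 6.92 CPM at day 0, 5.95 to 9.39 at day 7, 6.75 to 10.4 at day 14 and 7.24 to 9.52 at day 21. All 3 libraries of day 21 were above day 0, but its log2 fold change of 0.36 ± 0.21 (SE) had an edgeR adjusted p of 0.208. Psph shares 452 exonic bases, 10.4% of its exons, with Cct6a on the opposite strand, and the library kit does not keep the strand, so reads there cannot be assigned.

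The ratio of Psat1 to Phgdh counts within a library was looked at after the values were seen, for the difference between the genes, and is given with no test. As log2 it was -0.33, 0.32, -0.29 and -0.09 in day 0 replicates 1 to 4, and 1.34, 2.01, 1.24 and 1.24 at day 7. It was 1.16, 1.54, 1.57 and 1.94 at day 14, and 0.81, 2.02 and 1.41 at day 21. Counts of the 2 genes were therefore close to equal at day 0, and every later library held more of Psat1. The means were above that of day 0 by 1.56, 1.65 and 1.52 log2 units at days 7, 14 and 21.

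Of the enzymes that use serine, Shmt2 (ENSMUSG00000025403, chr10:127517123-127522444, minus strand) and Mthfd2 (ENSMUSG00000005667, chr6:83305691-83325908, minus strand) act in mitochondria, and Shmt1 (ENSMUSG00000020534, chr11:60788104-60811718, minus strand) in the cytosol. Mthfd2, which oxidises the folate-bound one-carbon unit, was at 6.60, 3.75, 4.95 and 3.40 CPM at day 0 and at 18.2, 21.8, 14.4 and 17.8 CPM at day 7. It was at 20.7, 15.2, 14.99 and 11.6 CPM at day 14 and at 14.7, 11.6 and 16.4 CPM at day 21, so no later library reached down to day 0. Its log2 fold change was 1.95 ± 0.23 (SE), 1.74 ± 0.23 and 1.61 ± 0.24 at days 7, 14 and 21, with edgeR adjusted p of 5.76e-05, 4.90e-05 and 0.000178.

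The pair that converts serine to glycine did not pass at any day. Shmt2 was at 26.7, 24.4, 26.5 and 26.6 CPM at day 0, at 36.5, 36.2, 33.3 and 32.9 CPM at day 7, at 37.4, 40.5, 32.2 and 28.3 CPM at day 14, and at 36.5, 30.4 and 35.6 CPM at day 21. All later libraries were above all day 0 libraries, but the level was only 1.31 to 1.33 times that of day 0, under the 1.5-fold limit, with edgeR adjusted p of 0.0141, 0.0105 and 0.0215. Shmt1 was at 13.3, 10.3, 14.5 and 11.5 CPM at day 0 and at 12.2, 11.2, 12.0 and 11.2 CPM at day 7. It was at 11.8, 8.87, 10.2 and 10.8 CPM at day 14 and at 9.96, 7.92 and 9.53 CPM at day 21, where all 3 libraries were below day 0. The day 21 log2 fold change of -0.44 ± 0.15 (SE) had an edgeR adjusted p of 0.0405 and was also under the 1.5-fold limit. Counted by adjusted p alone, 6, 5 and 6 of 9 members differed from day 0 at days 7, 14 and 21, against 25%, 33.1% and 29.8% of all genes tested. Counted by position alone, 5, 5 and 6 members had every later library above every day 0 library, against 17.6%, 16.8% and 19.4% of genes.

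The log2 ratio of Shmt2 to Shmt1 counts was 1.01, 1.23, 0.87 and 1.20 in day 0 replicates 1 to 4. It was 1.58, 1.69, 1.47 and 1.56 at day 7, 1.66, 2.19, 1.66 and 1.39 at day 14, and 1.87, 1.94 and 1.90 at day 21. Every later library was above every day 0 library. The mean difference from day 0 was 0.50, 0.65 and 0.83 at days 7, 14 and 21, each with an exact two-sided permutation p of 0.0286 (0.0286 adjusted over the 3 tests of this ratio), the smallest possible. The exact p was 0.0571 at day 14 without any 1 library of day 0, and 0.0667 or 0.1 at day 21 without any 1 library, the smallest that the groups left at day 21 allow. The ratio needs no scaling between libraries. Shmt1 shares 184 exonic bases (4.74%) with Smcr8 and Shmt2 32 bases (1.03%) with Ndufa4l2, both on the opposite strand, so reads there cannot be assigned.

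**Figure D2:**
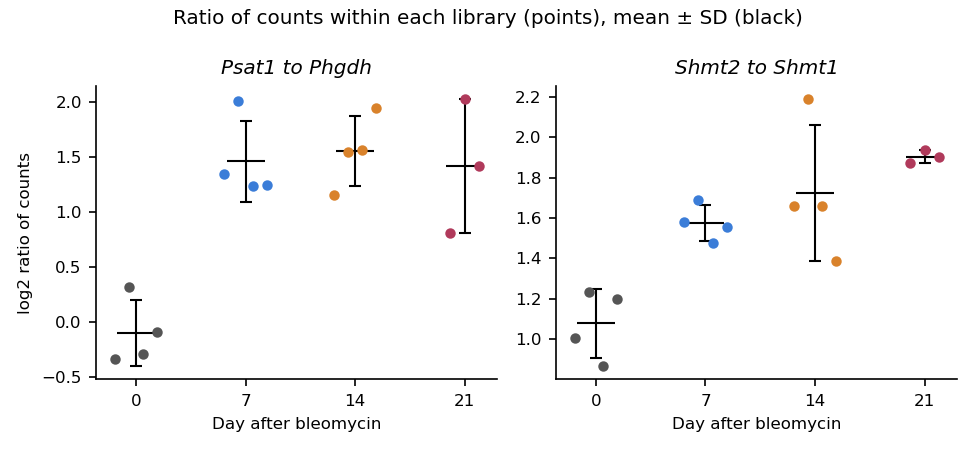
Log2 ratio of the counts of a pair of genes within each library (vertical axes, which differ between panels and do not start at 0) by day after bleomycin; points are libraries, bars the mean ± SD. In both panels every library of days 7, 14 and 21 lies above the 4 of day 0.

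In the proline branch both members rose. Aldh18a1 (ENSMUSG00000025007, chr19:40550257-40588463, minus strand), pyrroline-carboxylate synthase, was at 13.1, 16.1, 9.27 and 8.81 CPM at day 0 and at 35.2, 32.1, 30.8 and 30.9 CPM at day 7. It was at 39.6, 26.8, 33.2 and 22.6 CPM at day 14 and at 27.6, 26.0 and 37.2 CPM at day 21. The log2 fold change was 1.45 ± 0.20 (SE), 1.37 ± 0.20 and 1.36 ± 0.22, with edgeR adjusted p of 0.000235, 0.00015 and 0.000304. Pycr1 (ENSMUSG00000025140, chr11:120635712-120643769, minus strand), a mitochondrial pyrroline-carboxylate reductase, had the lowest level of the 9 genes. It was at 2.39, 1.75, 1.78 and 1.45 CPM at day 0, at 6.40, 5.86, 5.11 and 5.17 CPM at day 7, at 7.33, 6.44, 6.24 and 4.59 CPM at day 14, and at 4.45, 4.16 and 6.82 CPM at day 21. Its log2 fold change was 1.61 ± 0.23 (SE), 1.74 ± 0.23 and 1.48 ± 0.24, with edgeR adjusted p of 0.00025, 5.46e-05 and 0.000382. For both genes the later libraries did not overlap day 0.

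The cytosolic sister reductase Pycr3, listed under its older symbol Pycrl, did not pass at any day. Its log2 fold changes were 0.39, 0.24 and 0.00 at days 7, 14 and 21, with an edgeR adjusted p of 0.0386 at day 7 and a change under 1.5-fold.

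Asns (ENSMUSG00000029752, chr6:7675169-7693254, minus strand) transfers an amino group from glutamine to aspartate. It was at 27.8, 25.3, 17.1 and 16.2 CPM at day 0, at 34.6, 35.4, 25.7 and 33.5 CPM at day 7, at 32.6, 27.4, 20.9 and 24.2 CPM at day 14, and at 26.8, 23.2 and 23.6 CPM at day 21. The 4 libraries of day 0 formed pairs, and 3 of 4 day 7 libraries were above all of them. At day 7 the log2 fold change was 0.58 ± 0.18 (SE) with an edgeR adjusted p of 0.0286, which is 1.497-fold and just under the 1.5-fold limit. It passed the limit with limma voom (0.61), with a replicate block (0.60) and without day 0 replicate 1 (0.70), day 0 replicate 2 (0.65) or day 7 replicate 3 (0.68). The adjusted p rose above 0.05 with the mitochondrial share as a covariate (0.31, edgeR adjusted p = 0.253) and without any 1 of day 0 replicates 3 and 4 or day 7 replicates 1, 2 and 4, with values from 0.45 to 0.56 and edgeR adjusted p from 0.0563 to 0.105. At days 14 and 21 the log2 fold change was 0.28 ± 0.18 and 0.19 ± 0.19, with edgeR adjusted p of 0.246 and 0.510.

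Within day 0 the mitochondrial share was under 2.5% in 2 libraries and over 3.5% in 2. Asns, Aldh18a1, Psat1 and Phgdh were higher in both of the first than in both of the second, while the other 5 members overlapped, and 27.9% of all genes tested were separated in that direction. In Asns the levels were 25.3 and 27.8 CPM against 16.2 and 17.1 CPM. Among libraries under 2.5% alone, 2 of day 0 against 4 of day 7, the log2 fold change was 1.61 for Psat1, 1.79 for Mthfd2, 1.13 for Aldh18a1 and 1.43 for Pycr1, and these 4 still passed, while Asns gave 0.27 with an edgeR adjusted p of 0.222. Among libraries over 3.5%, 2 of day 0 against 3 of day 14, the same 4 genes passed with values of 1.95, 1.73, 1.59 and 1.82, and Asns gave 0.53 with an edgeR adjusted p of 0.0776.

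**Figure D3:**
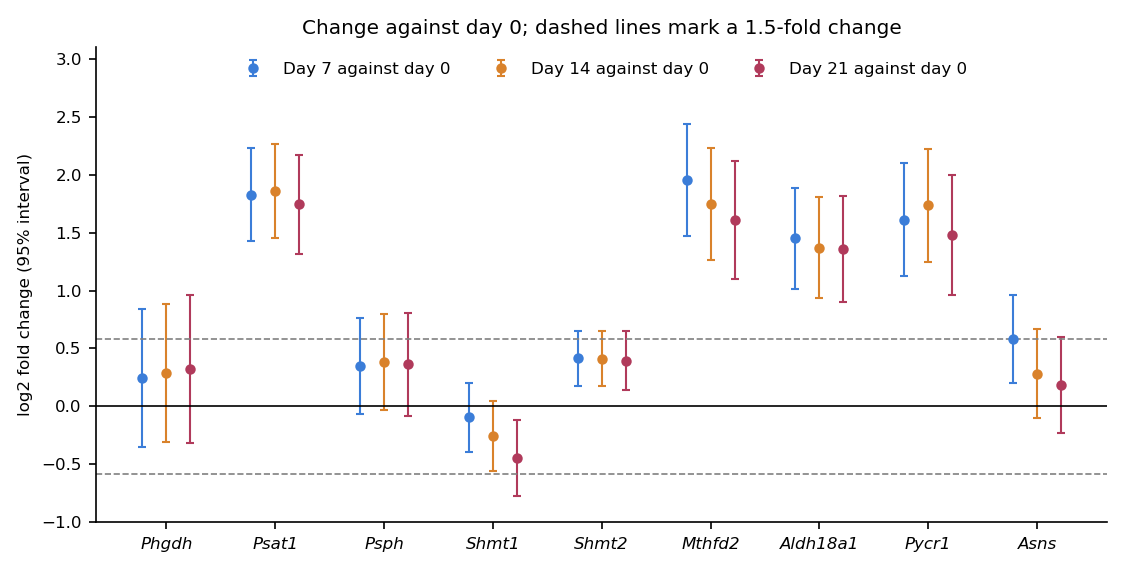
Log2 fold change against day 0 (vertical axis) of the 9 genes at days 7, 14 and 21, with 95% intervals from edgeR; dashed lines mark 1.5-fold. Psat1, Mthfd2, Aldh18a1 and Pycr1 lie above the upper line at all 3 days with their whole intervals.

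Between neighbouring later days none of the 9 genes passed the test, and day 21 was not compared with day 7. From day 7 to day 14, 0 of 9 passed in edgeR, against 6% of all genes in either direction. From day 14 to day 21, 0 of 9 passed, against 0% of all genes. At an unadjusted p under 0.05 the count was 0 of 9 for both, and DESeq2 and limma voom gave 0 of 9 as well. Over all genes from day 7 to day 14, edgeR had 4372 at an unadjusted p under 0.05, DESeq2 called 1638 and limma voom 995. From day 14 to day 21, DESeq2 called 106, limma voom 0, and edgeR had 1714 at an unadjusted p under 0.05. The 95% intervals reached from -0.68 to 0.63 (log2) for day 14 against day 7 and from -0.75 to 0.68 for day 21 against day 14, and for some members they included changes of 1.5-fold. For Shmt2 they were narrower, from -0.24 to 0.23 and from -0.27 to 0.24. Within days 14 and 21 single libraries were highest or lowest for many members, and the share over all genes was not taken. Day 14 replicate 1 was the highest of its day for 7 of 9 genes, and its mitochondrial share was 2.1% against 3.79%, 4.14% and 3.74% in replicates 2 to 4, whose part was not tested. Day 21 replicate 2 was the lowest of its day for 9 of 9, with 65.1 CPM of summed proliferation markers against 119 and 174 CPM in the other libraries of that day.

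To compare genes with each other, CPM were divided by the exon length of each gene in kilobases. On this scale Shmt2 (8.37 ± 0.36, n = 4) and Asns (7.89 ± 2.13) led at day 0 and overlapped. Phgdh followed at 4.70 ± 0.75 and overlapped neither neighbour, but its place is uncertain at every day because of the copies given above. Shmt1 (3.20 ± 0.48), Aldh18a1 (2.90 ± 0.84) and Psat1 (2.58 ± 0.50) overlapped in turn, as did Psph (1.47 ± 0.18) and Mthfd2 (1.34 ± 0.41), and Pycr1 was the lowest at 0.469 ± 0.101, below every Mthfd2 library. At day 7 Psat1 (9.15 ± 2.24) and Aldh18a1 (7.93 ± 0.51) had moved above Phgdh (5.59 ± 0.50) with no overlap between Aldh18a1 and Phgdh, and Mthfd2 (5.18 ± 0.87) had moved above Shmt1 (3.0 ± 0.13) and Psph (1.87 ± 0.38). The same order of means from Psat1 down to Pycr1 held at days 14 and 21, where Aldh18a1 and Phgdh overlapped. Pycr1 overlapped Psph at all 3 later days.

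**Figure D4:**
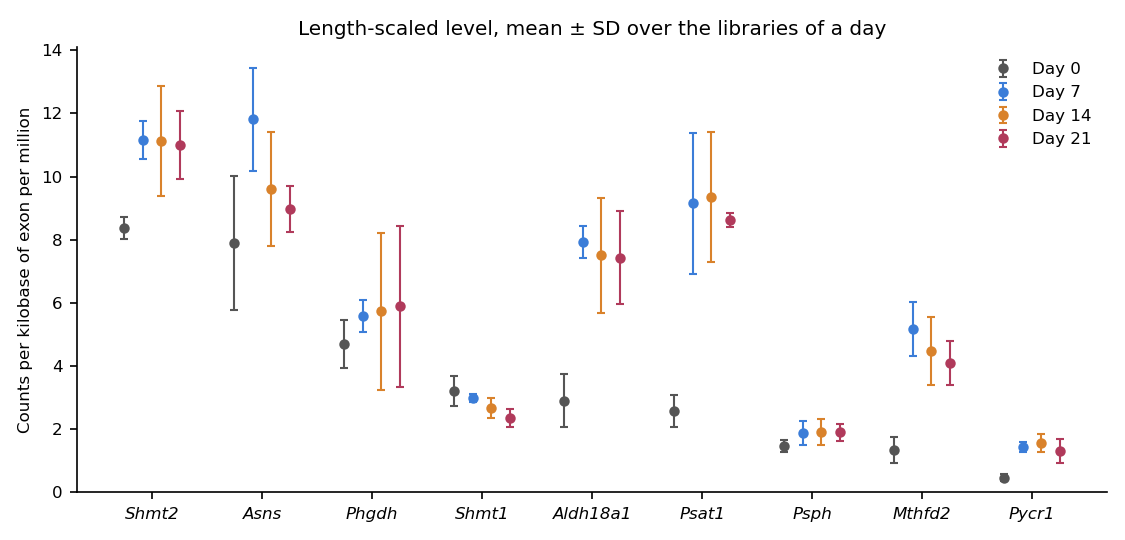
CPM per kilobase of exon (vertical axis, from 0) for the 9 genes, ordered by their day 0 mean; points are means and bars the SD over 4, 4, 4 and 3 libraries. Psat1 went from 2.58 at day 0 to 9.15 at day 7, above Phgdh.

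The promoters of the members were searched for 3 short motifs in windows from 250 bases before to 50 bases after the RefSeq start site (GRCm38.p6, both strands, 10 windows for 9 genes). The C/EBP-ATF response element, searched as TGATGNAA and known as a site of ATF4, was found in 2 of 9 genes, Pycr1 and Asns, and in 4.51% of 27025 genes, or 3.97% of their 32851 windows. The E-box CACGTG was found in Aldh18a1 and in 8.09% of genes (7.15% of windows). The core of the antioxidant response element, TGACNNNGC, was found in Asns, Phgdh and Psph and in 14% of genes (12.4% of windows). None of the matches overlapped another. The windows of Pycr1 and Asns are shown because they hold the ATF4-type letters (capitals), at first base -103 and -23 from the start site. Those of Psat1 and Mthfd2 are shown as examples in which none of the 3 motifs was found. All 4 are written 5′ to 3′ on the minus strand, and Psat1 has another window that held no match either. The windows of Psat1 and Mthfd2 lie well inside the gene spans given above, and bases outside the windows were not searched.
Pycr1 (chr11:120643699-120643998): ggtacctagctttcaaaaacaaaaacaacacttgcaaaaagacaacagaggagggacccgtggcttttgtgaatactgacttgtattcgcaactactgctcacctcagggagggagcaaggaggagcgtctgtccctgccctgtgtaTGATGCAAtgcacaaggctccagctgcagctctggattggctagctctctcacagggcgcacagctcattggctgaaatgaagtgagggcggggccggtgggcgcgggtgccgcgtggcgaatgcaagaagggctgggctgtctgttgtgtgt
Asns (chr6:7693160-7693459): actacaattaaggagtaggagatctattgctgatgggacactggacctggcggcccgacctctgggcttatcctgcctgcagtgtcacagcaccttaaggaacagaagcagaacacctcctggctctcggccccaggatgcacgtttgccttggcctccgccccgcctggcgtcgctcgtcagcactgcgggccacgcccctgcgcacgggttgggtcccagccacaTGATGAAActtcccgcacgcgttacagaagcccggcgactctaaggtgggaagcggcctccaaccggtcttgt
Psat1 (chr19:15925010-15925309): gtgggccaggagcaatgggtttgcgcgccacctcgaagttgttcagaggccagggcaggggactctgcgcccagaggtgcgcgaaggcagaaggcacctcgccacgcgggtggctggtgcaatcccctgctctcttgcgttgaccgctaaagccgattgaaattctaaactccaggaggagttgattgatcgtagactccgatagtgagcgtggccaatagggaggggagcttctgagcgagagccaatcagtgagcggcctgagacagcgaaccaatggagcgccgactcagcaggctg
Mthfd2 (chr6:83317555-83317854): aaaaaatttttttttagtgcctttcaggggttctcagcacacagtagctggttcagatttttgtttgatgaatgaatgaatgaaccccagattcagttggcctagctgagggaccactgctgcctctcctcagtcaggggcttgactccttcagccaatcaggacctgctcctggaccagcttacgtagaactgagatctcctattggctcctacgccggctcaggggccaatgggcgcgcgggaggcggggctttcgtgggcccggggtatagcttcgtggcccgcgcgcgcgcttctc
Pycr1 and Asns share the letters. Pycr1 passed at all 3 days. Asns passed at none, and at day 7 was 1.497-fold with an edgeR adjusted p of 0.0286. The part of the motifs in any change was not tested. A match is a description of the sequence only.

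Genes around these enzymes were counted in 8 lists with 107 genes tested in all. Of these, 21 were higher and 10 lower at day 7, 21 and 14 at day 14, and 26 and 16 at day 21. Of all genes tested, 8.78%, 12% and 12.4% were higher and 7.36%, 11.2% and 10.1% lower at days 7, 14 and 21, which is the background of each list count here. With the mitochondrial share in the model the day 7 counts of these genes were 9 higher and 5 lower. Among 20 tested genes of the ATF4 stress response, 2 rose and 2 fell at day 7, 3 and 2 at day 14, and 4 and 1 at day 21, with a median log2 fold change of 0.04, 0.08 and 0.10. This list includes Atf4 itself and the kinase genes Eif2ak1 to Eif2ak4. The members, the transporters and the tRNA synthetases are counted apart from it, so its median does not measure ATF4 activity. Atf4 RNA was at 154 ± 27.5 CPM at day 0 and 154 ± 10.5, 174 ± 23.5 and 169 ± 15.6 CPM later (edgeR adjusted p 0.994, 0.329 and 0.518). Gdf15, a secreted stress cytokine, rose from 1.58 ± 0.17 CPM to 24.2 ± 3.22 at day 7 and was at 9.55 ± 2.39 at day 21. Stc2 rose at days 14 and 21 (0.92 and 1.37) and Trib3, an ATF4 target that restrains it, at the same days (0.76 and 0.87). Atf5, a related factor, fell by 0.62, 0.69 and 0.88 on the log2 scale. Of 20 cytosolic tRNA synthetases, 5 rose at day 7 and 1 at each later day, and none fell. Gars, for glycine, rose at all 3 days (0.73, 0.73 and 0.66), while Aars, for alanine, Iars and Rars rose at day 7 (0.70, 0.61 and 0.60).

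The folate list had 13 genes tested, of which 3 rose and none fell at day 7, 3 rose and none fell at day 14, and 4 rose and 1 fell at day 21. Aldh1l2, a mitochondrial enzyme that releases the formyl unit from folate, rose from 1.40 ± 0.53 CPM to 4.29 ± 0.82, 5.21 ± 3.98 and 6.07 ± 0.76 CPM at days 7, 14 and 21. Tyms, thymidylate synthase, rose as well, and its log2 fold changes in the same order of days were 1.20, 1.30 and 0.91. It rose together with the proliferation markers given above, whose part was not tested. Ftcd passed at day 21 at a level of 1.04 ± 0.70 CPM. Of the relatives of Mthfd2, 1 passed, at 1 day. Mthfd1, the cytosolic form, was at 103 ± 15.2 CPM at day 0 and 66.7 ± 18.8 CPM at day 21 (log2 fold change -0.63, edgeR adjusted p = 0.0172), and did not pass before. Mthfd1l had log2 fold changes of 0.34, 0.62 and 0.69 and Mthfd2l of 0.00, 0.38 and 0.42, and neither passed at any day.

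The list of genes that use serine or glycine had 3 lower and none higher of 11 at day 7, 4 lower and 2 higher at day 14, and 5 lower and 3 higher at day 21. Cbs, which joins serine to homocysteine, went from 7.54 ± 0.95 CPM to 3.86 ± 1.0, 1.66 ± 0.67 and 2.09 ± 0.15 CPM. Gnmt, which methylates glycine, went from 10.3 ± 3.23 CPM to 3.35 ± 0.60, 2.51 ± 0.50 and 2.72 ± 1.14 CPM. Gldc and Agxt passed as higher at day 21, at mean levels of 1.68 ± 1.28 and 0.962 ± 0.844 CPM against 0.193 ± 0.098 and 0.139 ± 0.121 CPM at day 0. The day 0 levels are a few counts per library, and Agxt libraries overlapped day 0.

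Among 8 tested proline and ornithine genes, 2 rose and 1 fell at day 7, 1 rose and 1 fell at day 14, and 1 rose and 3 fell at day 21. Prodh, which breaks proline down, fell from 29.3 ± 9.39 CPM to 14.7 ± 1.57, 14.8 ± 0.61 and 16.1 ± 5.68 CPM, and at day 21 its libraries overlapped those of day 0. Aldh4a1, the next step of breakdown, and Oat, which links ornithine to the proline pathway, passed as lower at day 21 (-0.79 and -0.65). Of 10 genes of glutamine, glutamate and aspartate metabolism, 1 rose and 2 fell at day 7, 3 fell at day 14 and 2 fell at day 21. Glul, glutamine synthetase, fell from 711 ± 99.3 CPM to 393 ± 86.8, 355 ± 81.4 and 376 ± 119 CPM. Gpt fell to 6.63 ± 0.59 CPM at day 21 from 45.1 ± 9.64, Aspg fell at days 7 and 14 (-1.53 and -1.66), and Got1 rose at day 7 (0.64).

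Transporters moved both ways, with 2 of 14 higher and 2 lower at day 7, 4 and 4 at day 14, and 6 and 3 at day 21. Slc7a11, the cystine importer, rose from 3.01 ± 1.10 CPM to 11.2 ± 0.99, 26.5 ± 6.59 and 17.1 ± 2.01 CPM, and Slc7a5, a carrier of large neutral amino acids, from 11.0 ± 0.96 CPM to 24.7 ± 4.92, 28.5 ± 14.8 and 32.2 ± 3.98 CPM. Slc6a9, a glycine carrier, fell at days 7 and 14 (-0.99 and -1.28). Slc7a10, a carrier of small neutral amino acids, went from 21.5 ± 4.92 CPM to 9.15 ± 5.39, 2.91 ± 3.43 and 0.622 ± 0.340 CPM. It passed as lower at days 14 and 21. Adipocyte markers, summed over 5 genes, were at 1.55 to 51.6 CPM at day 0, 4.64 to 127 CPM at day 7, 0.400 to 0.650 CPM at day 14 and 0.228 to 2.41 CPM at day 21. Each of the 5 was at 0 in at least 1 library, and their part in the fall of Slc7a10 was not tested.

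Collagen chains and the enzymes that modify them were the list with the largest medians, 1.75, 2.11 and 2.28 log2 units at days 7, 14 and 21. Of 11 genes, 6, 7 and 7 rose, and only P4ha1, named after its values were seen, fell, at day 21. Col1a1, the main chain of type I collagen, went from 313 ± 74.8 CPM to 1437 ± 213, 2282 ± 1885 and 2483 ± 1075 CPM. Col5a1 and Col5a2 were at log2 fold changes of 3.07 and 3.06 at day 21, and P4ha3, a prolyl hydroxylase, went from 1.68 ± 0.66 CPM to 31.1 ± 3.59 CPM there. Activated fibroblast markers rose at the same days, in 2, 4 and 4 of 4 genes. Of 6 general fibroblast markers 1 rose and none fell at day 7, and 1 rose and 2 fell at each of days 14 and 21. The part of either list in the collagen values was not tested.

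**Figure D5:**
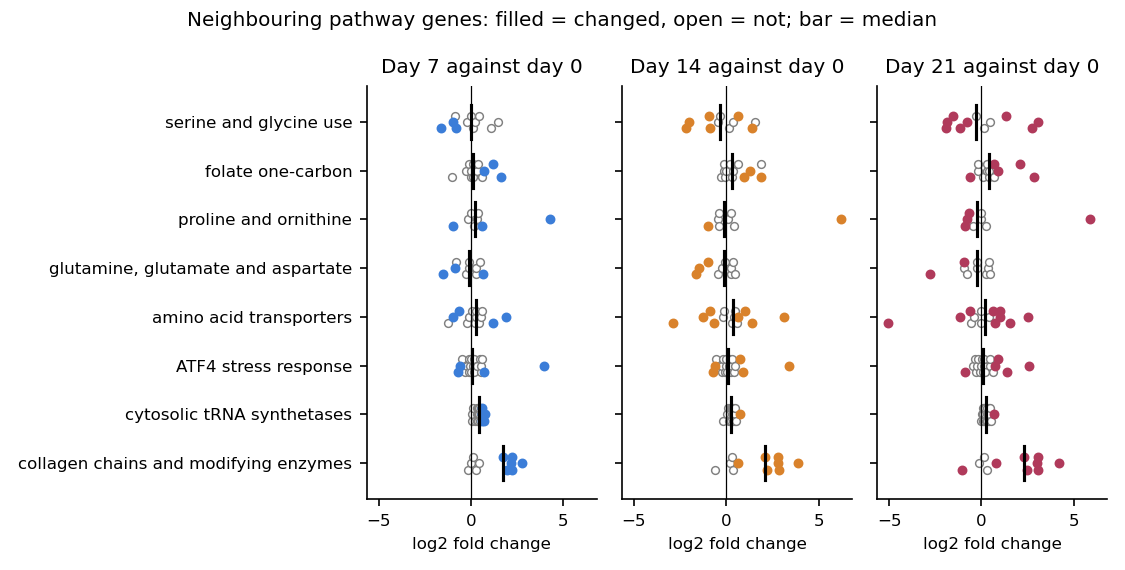
Log2 fold change against day 0 (horizontal axis) of the 107 tested genes of 8 lists (vertical axis) at days 7, 14 and 21; filled points passed the test, open points did not, and black bars are list medians. The median bar of the collagen list lies far to the right at every day (1.75, 2.11 and 2.28), and that of the ATF4 list near 0 (0.04, 0.08 and 0.10). The ATF4 list includes Atf4 itself and kinase genes, and leaves out the members.

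Finally, the genes with the most similar profiles were sought for 4 members, by the root mean square difference of log2 CPM relative to day 0 over the 15 libraries, among 11806 genes with at least 5 CPM on average. For Mthfd2 they were Tubb6 (a beta tubulin; difference 0.23), AI506816 (0.28) and Psat1 (0.29), so that another member was among the nearest 3. For Pycr1 they were Tmem173, which encodes STING (0.18), Ckap4 (0.20) and Phlda3 (0.21), with log2 fold changes of 1.37 to 1.79. For Asns they were Sdc4 (0.15), Galnt3 (0.15) and Wdr36 (0.16), and those of Phgdh included Foxq1 (0.23) and Slfn2 (0.24). The libraries and their scaling are shared by all genes in this search, and nearness is a description only.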

How the data were processed

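Raw gene counts of 15 whole-lung libraries were used as deposited. Per the labels and the submitters' processing notes, the authors trimmed reads with TrimGalore, aligned them to mm10 with HISAT2 2.1.0, left out reads with several alignments and made the counts with HTSeq 0.6.0. The annotation release and strand setting are not given in the sources used here. The counts were tested with edgeR 4.0.16 in R 4.3.3 (TMM scaling, filterByExpr by day, quasi-likelihood F test, 1 fit over all libraries with day as the factor, no replicate block), with Benjamini-Hochberg adjustment over 17457 genes. A gene was called changed at more than 1.5-fold with an adjusted p below 0.05. The common biological coefficient of variation was 22.8%. Ratios were taken on log2 counts with 0.5 added, and that of Shmt2 to Shmt1 was tested by exact two-sided permutation. Gene positions and exon lengths came from GENCODE M21, to which 33267 gene IDs matched, and copies were searched with BLAST+ 2.17.0. The scripts were tested on simulated counts. Alternatives were limma 3.58.1 voom, DESeq2 1.42.0, other filters, a mitochondrial share covariate, subsets of libraries and leaving out each library.

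The members and gene lists were chosen with earlier results of these data known. Named were all members, Atf4 and the sister enzymes, up to 4 changed genes a list by largest log2 fold change, and the 3 nearest profiles of 4 members. Some genes and a ratio that this rule names are not reported here.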

Additional observations from a re-analysis of the deposited data

Results flagged for a closer look

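Among 33 sets of 4 libraries looked at, 3 held a library far from the other 3 of its day, and chance gives about 5% of such sets. In day 0 replicate 1 the level of Phgdh was 14.4 CPM, and the others had 10.3 to 11.0 CPM. In day 0 replicate 2 that of Shmt2 was 24.4 CPM, and the others had 26.5 to 26.7 CPM. The log2 ratio of Psat1 to Phgdh was 2.01 in day 7 replicate 2, against 1.24 to 1.34.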

How the results depend on the processing

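Of 733 alternative values, 700 were the same, 14 lost and 10 gained the call, 7 moved and 2 reversed. The same meant an unchanged direction and side of the threshold. For a ratio with no test it meant within the spread, and for a count of genes within 1.5-fold of the main count. All 14 lost calls were of the Shmt2 to Shmt1 ratio, in 1 of 10 alternatives at day 7, 5 of 10 at day 14 and 8 of 9 at day 21. Psat1, Mthfd2, Aldh18a1 and Pycr1 passed under every alternative, and the number of members called ran from 4 to 6 at day 7, 4 to 5 at day 14 and 4 to 6 at day 21. Both reversals were of Phgdh when 1 library was left out, with values from -0.044 to 0.48 at day 14 (lowest without replicate 1 of day 14) and from -0.080 to 0.55 at day 21 (lowest without replicate 1 of day 21). The genes of the 8 lists that changed numbered 31 at day 7, and 50 with no fold limit, 14 with the mitochondrial share in the model and 11 with a test against the 1.5-fold limit itself. At day 14 they numbered 35, against 50 with no fold limit and 19 in the test against the limit, and at day 21 42 against 24 in that test.

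The labels give same-numbered replicates no common source. The correlation of their deviations from the day means had a median of 0.041 over 21 pairs (-0.244 to 0.397, 8 over 0.1), against -0.032 over 63 pairs with different numbers (13 over 0.1). Replicate 1 was the highest of its day for 5, 5, 7 and 6 of 9 members at days 0, 7, 14 and 21, and the share over all genes was not taken. With a replicate block Asns also passed at day 7, and the ratio differences were 0.50, 0.65 and 0.87 for Shmt2 to Shmt1 (exact p = 0.125, 0.125 and 0.25) and 1.56, 1.65 and 1.52 for Psat1 to Phgdh. With 4 or 3 pairs the exact test cannot go below 0.125 or 0.25. When 1 library was left out, Shmt2 to Shmt1 gave 0.49 to 0.76 at day 14 (exact p up to 0.0571) and 0.76 to 0.88 at day 21 (exact p = 0.0667 or 0.1), and Psat1 to Phgdh gave 1.21 to 1.82 at day 21. Where the alternative did not itself remove libraries or genes, the cause was not tested. Among members Pycr1 had the fewest counts, 26 to 124 a library.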
